A study of Mus musculus with 93 samples.

Results

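Macrophages sorted from the skin of mouse embryos at E14.5 and E18.5 (4 libraries) were compared with macrophages sorted from limbs at E10.25, E10.5 and E12.5 (6 libraries). These 10 libraries were picked by their labels (cell type Mac, tissue group Caudal / skin, embryonic age), out of 74 Mac libraries and 93 libraries in all. Earlier results of these data were known when the libraries and the gene lists were chosen. The series covers resident macrophages and their progenitors in several tissues and ages of the mouse, profiled as bulk polyA RNA with SMART-Seq2, a full-length cDNA protocol for small inputs. Each of the 5 groups (limbs E10.25, limbs E10.5, limbs E12.5, skin E14.5 and skin E18.5) holds 2 libraries, numbered as replicates 1 and 2. The labels name neither a strain nor a genotype, a treatment or the surface markers of the sort. They do not say which replicates are biological and which technical, so the p-values rest on a spread among libraries that could be technical alone. No age was sampled in both tissues, so tissue and age cannot be told apart in any skin against limb comparison. In bulk RNA, fewer cells of a type and less RNA per cell cannot be told apart either.

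Resident macrophages of the skin include Langerhans cells, which settle in the epidermis before birth, depend on TGF-beta signalling and the transcription factor RUNX3, anchor themselves to keratinocytes with E-cadherin and present antigen on MHC class II. Macrophages of the dermis and around vessels carry scavenger and uptake receptors such as the mannose receptor (Mrc1), LYVE-1 and stabilin-1. Limb bud macrophages of the early embryo clear dying cells, among them those between the forming digits.

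Promoter sequences are given here for Runx3, a marker of the skin groups, and for 3 MHC class II genes, so that the 2 promoters of Runx3 and the shared elements of the class II promoters can be seen. Over both skin ages neither Runx3 nor any class II gene was called against limbs. In E18.5 skin Runx3 and H2-DMb1 were called, and H2-Aa and H2-Eb1 were not. Runx3 is transcribed from a distal and a proximal promoter on chromosome 4, plus strand. Each sequence below is the 250 bases before a RefSeq start site in GRCm38.p6, written 5′ to 3′ on the gene's strand. For Runx3, capitals mark matches on either strand to TGTGGT, the core letters bound by RUNX proteins.
Runx3 distal promoter, chr4:135120395-135120644, plus strand: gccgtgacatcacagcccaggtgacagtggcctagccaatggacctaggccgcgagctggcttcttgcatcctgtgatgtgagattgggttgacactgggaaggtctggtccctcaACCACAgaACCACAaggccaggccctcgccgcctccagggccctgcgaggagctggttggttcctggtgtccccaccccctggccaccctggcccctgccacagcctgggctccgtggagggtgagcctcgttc
Runx3 proximal promoter, chr4:135152295-135152544, plus strand: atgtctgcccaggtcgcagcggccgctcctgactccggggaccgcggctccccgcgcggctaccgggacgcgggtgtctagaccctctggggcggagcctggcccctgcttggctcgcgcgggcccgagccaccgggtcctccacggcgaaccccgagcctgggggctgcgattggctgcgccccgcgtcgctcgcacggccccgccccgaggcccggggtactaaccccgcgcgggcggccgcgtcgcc
The distal sequence held 2 matches, both on the minus strand, starting 134 and 126 bases before the start site, and the proximal sequence held 0. Of 32851 RefSeq promoter windows of 300 bases (250 before to 50 after the start), 16.8% held this motif on either strand, and 2 of the 10 Langerhans cell and epidermal genes with a window did. The 2 deposited Runx3 transcripts differed in level. The transcript of the distal promoter (start at 135120652) had log2 values of 11.60 and 11.21 in the E18.5 skin libraries, while that of the proximal promoter (start at 135152496) had 7.99 in replicate 1 and slightly less in replicate 2, and lay under the floor in the other 8 libraries. A match is a description of the letters, and binding was not measured.

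The 3 class II promoters are shown with capitals at ATTGG (the core of the Y box, on either strand) and at the longest run of letters that the H2-Eb1 and H2-DMb1 windows share. That run was looked for after both sequences had been read.
H2-Aa, chr17:34287824-34288073, minus strand: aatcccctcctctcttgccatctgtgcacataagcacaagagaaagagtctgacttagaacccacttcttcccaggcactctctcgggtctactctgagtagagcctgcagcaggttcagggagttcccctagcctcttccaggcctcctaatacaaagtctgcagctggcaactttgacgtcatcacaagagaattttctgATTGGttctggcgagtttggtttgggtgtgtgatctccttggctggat
H2-Eb1, chr17:34305617-34305866, plus strand: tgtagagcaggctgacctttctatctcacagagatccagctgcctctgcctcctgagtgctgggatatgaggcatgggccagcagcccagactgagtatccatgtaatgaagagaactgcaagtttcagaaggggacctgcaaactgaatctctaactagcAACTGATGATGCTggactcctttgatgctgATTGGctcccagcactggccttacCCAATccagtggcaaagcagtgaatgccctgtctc
H2-DMb1, chr17:34152941-34153190, plus strand: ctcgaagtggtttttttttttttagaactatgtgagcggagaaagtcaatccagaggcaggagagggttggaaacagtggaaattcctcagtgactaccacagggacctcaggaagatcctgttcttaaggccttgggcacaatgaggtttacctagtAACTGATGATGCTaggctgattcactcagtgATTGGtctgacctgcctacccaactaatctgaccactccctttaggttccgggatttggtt
The shared run, AACTGATGATGCT, has 13 bases and starts 89 bases before the H2-Eb1 start and 92 bases before the H2-DMb1 start. Only 3 of the 32851 windows held it on either strand, these 2 genes included. ATTGG lay 59, 61 and 48 bases before the starts of H2-Eb1, H2-DMb1 and H2-Aa. A match to ATTGG on either strand was found in 37.4% of all windows and in those of 7 of the 8 class II list genes that have a window.

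All values below are gene levels on a log2 scale with a common floor of 5.38, under which a transcript counts as not detected, and differences are log2 differences with their standard error. Differences from a group at the floor depend on the floor and are not folds. A gene was called, and is said to have risen or fallen, where limma's Benjamini-Hochberg adjusted p over all genes tested was under 0.05 and the difference at least 1 in size. The files hold no counts, so depth is unknown. Between 20486 and 25159 transcripts lay above the floor in the 10 libraries (14423 to 25159 in all 93). Replicates of a group correlated across genes with Pearson's r from 0.628 (limbs E12.5) to 0.893 (skin E18.5). By the pattern of their values under the floor, the libraries of the series form 2 low-value sets, 1 of 60 and 1 of 33. Limbs E10.5 replicate 2 and limbs E12.5 replicate 1 belong to the smaller set, and the other 8 libraries belong to the larger.

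The macrophage label held in every library. All 23 genes of a macrophage core list were detected in all 10, and Csf1r, the receptor for the main macrophage growth factor, ranged from 13.66 to 15.78. The core list had a median difference of 0.32 between skin and limbs, against 0.03 over all genes tested, and none of its members was called. The 2 markers given for the skin groups behaved differently by age. Runx3 was high in both E18.5 skin libraries and Mrc1 in both E14.5 skin libraries, so neither marked skin as a whole.

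With the means of both skin ages averaged, a single gene passed the test against the average of the limb ages. The spread in this fit is that between replicates of the same tissue and age. Over 11624 genes, limma called 1 gene higher and 0 lower (0.00860% called), and 959 genes (8.25%) had an unadjusted p under 0.05, 510 of them higher and 449 lower. The called gene was Cxcl16, which encodes a membrane-bound chemokine and scavenger receptor. Its levels in limbs were 5.65 and 5.38 at E10.25, 5.38 and 5.59 at E10.5 and 10.29 and 11.20 at E12.5, and in skin they were 9.06 and 10.99 at E14.5 and 13.75 and 13.46 at E18.5. Limbs at E12.5 and skin at E14.5 thus overlapped, and both lay far above the earlier limbs. These levels sum all transcripts of the gene. In limbs E12.5 replicate 2 the protein-coding transcript was at 6.71, with a nonsense-mediated decay transcript at 10.61 and a retained intron at 9.57. In replicate 1 the protein-coding transcript was at 9.46. With the highest transcript per gene, the difference of skin from limbs was 3.65 (limma, adjusted p = 0.126). Cxcl16 rose by 4.57 ± 0.53 (SE) in skin (adjusted p = 0.0228 from limma). Against limbs E12.5 alone the difference was 1.07 with an adjusted p of 0.652. Within the larger low-value set it was 4.45 with an adjusted p of 0.141. With all skin libraries fitted as 1 group and all limb libraries as another, limma gave Cxcl16 an adjusted p of 0.345 and called 0 genes. Leaving out any 1 library other than skin E14.5 replicate 1 brought the count of called genes to 0.

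The 2 skin ages differed from each other in more genes than skin as a whole did from limbs. Skin E14.5 alone against limbs gave 0 called genes by limma (1192 with an unadjusted p under 0.05), and skin E18.5 alone gave 86 (0.740%), 63 higher (0.542%) and 23 lower (0.198%). Compared directly, the 2 skin ages differed in 98 genes (0.843%), of which 51 were higher (0.439%) and 47 lower (0.404%) at E18.5. Both comparisons of E18.5 skin, with limbs and with E14.5 skin, were made results of their own after the data had been seen. The comparison with limbs had been planned only as an alternative setting of skin against limbs. These counts rest on both libraries of an age. Without skin E18.5 replicate 1 or 2, limma called 0 genes against limbs (483 and 383 with an unadjusted p under 0.05). Without limbs E10.25 replicate 1 or 2 the count was 25 or 15, without limbs E10.5 replicate 1 or 2 it was 40 or 31, and without limbs E12.5 replicate 1 it was 166. For E18.5 against E14.5, the count was 0 and 3 without skin E14.5 replicates 1 and 2, 0 and 5 without skin E18.5 replicates 1 and 2, and 2 and 0 without limbs E10.25 replicates 1 and 2. It was 58 and 37 without limbs E10.5 replicates 1 and 2, and 216 and 218 without limbs E12.5 replicates 1 and 2. Genes detected in the E18.5 libraries alone fall under the filter when 1 of the 2 is left out. Within the larger low-value set, 7 genes were called for E18.5 skin against limbs (5 higher and 2 lower) and 101 for E18.5 against E14.5 skin.

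**Figure D1:**
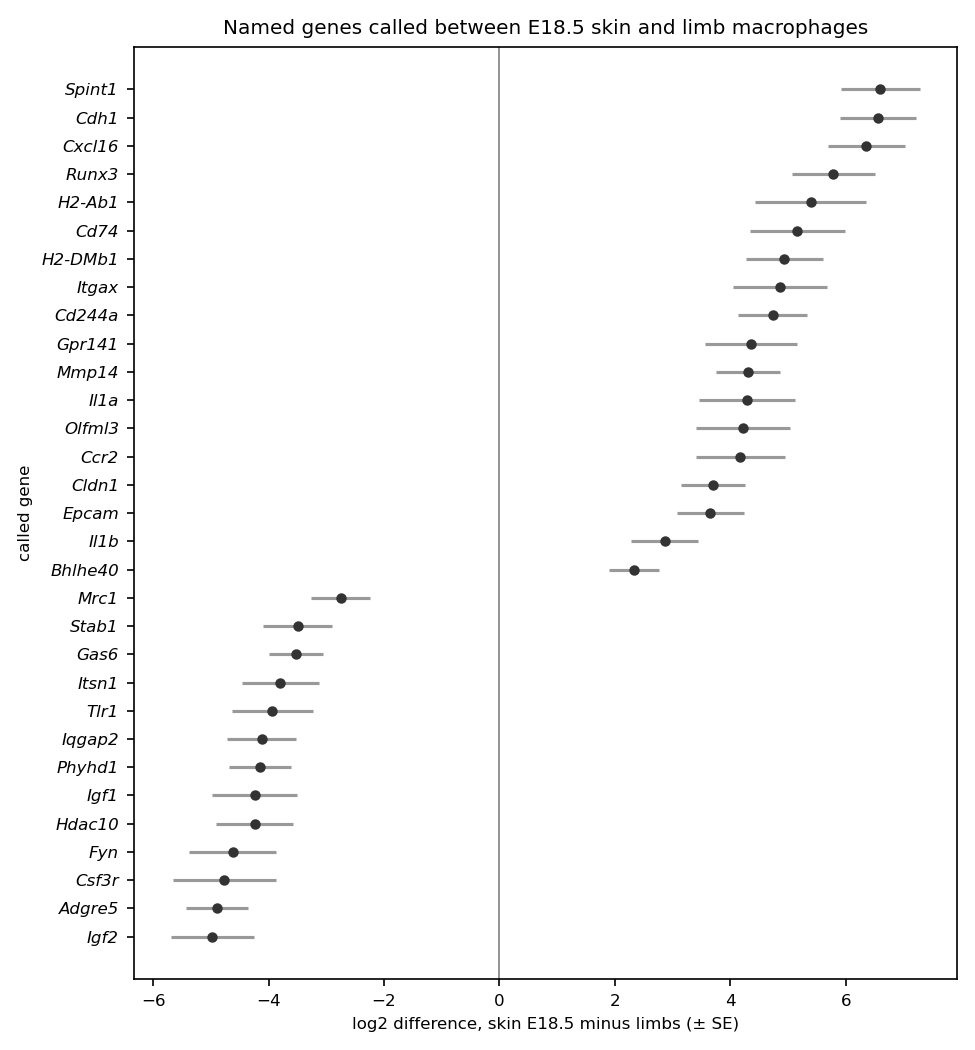
Log2 difference of E18.5 skin against limb macrophages for the named called genes. Points are differences in limma's fit of 10 libraries and bars are standard errors. Spint1, Cdh1, Cxcl16 and Runx3 stand at the upper end (5.79 to 6.60) and Igf2, Adgre5 and Csf3r at the lower end (-4.77 to -4.97).

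Runx3, a transcription factor needed for Langerhans cells, was near the floor in limbs. Its levels there were 5.38 and 5.62 at E10.25, 5.38 and 5.38 at E10.5, and 5.84 and 6.73 at E12.5. In skin they were 6.42 and 6.47 at E14.5 and 11.69 and 11.32 at E18.5. The E14.5 values lay among those of E12.5 limbs, and both E18.5 values lay far above all others. Runx3 rose by 5.79 ± 0.72 in E18.5 skin against limbs (limma, adjusted p = 0.00744) and by 5.06 ± 0.88 against E14.5 skin (adjusted p = 0.0268). Over both skin ages the difference from limbs was 3.26 ± 0.57 with an adjusted p of 0.115. Within the larger low-value set the difference of E18.5 skin from limbs was 5.64 with an adjusted p of 0.0522. Without either E18.5 skin library, neither this gene nor Mrc1 was called in either comparison of E18.5 skin. The 5 genes whose means over the 5 groups correlated best with those of Runx3 were Fam234b, Psmb2, St8sia1, Rhof and Ocstamp, with Pearson's r from 0.989 to 0.997 over 5 group means, a description with no test.

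The Langerhans cell and epidermal list has 14 genes, all measured, of which 12 were tested. In E18.5 skin 5 of them rose against limbs and 5 against E14.5 skin, and 0 fell in either comparison (Runx3, Cdh1, Cldn1, Epcam and Id2 in both). Of all genes tested, 0.542% rose against limbs and 0.439% against E14.5 skin. The list's median difference was 2.67 against limbs and 3.85 against E14.5 skin, where the medians over all genes tested were 0.02 and -0.01. Cdh1, Epcam and Cldn1 would not have passed the filter without the E18.5 skin libraries, in which they were high. The count of members that rose and the list's median thus depend in part on the filter. Cdh1, which encodes E-cadherin, was at the floor in 5 limb libraries and both E14.5 skin libraries and at 5.91 in limbs E12.5 replicate 2, and reached 11.71 and 12.35 in the E18.5 skin libraries. It rose by 6.56 ± 0.66 against limbs (limma, adjusted p = 0.00283) and by 6.65 ± 0.81 against E14.5 skin (adjusted p = 0.011).

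Epcam, an epithelial adhesion molecule that Langerhans cells carry, and Cldn1, a tight junction protein, were at the floor outside E18.5 skin except in limbs E12.5 replicate 2 (6.40 and 6.41). In the E18.5 skin libraries Epcam was at 8.75 and 9.65 and Cldn1 at 9.17 and 9.33, so both genes separated these libraries from the other 8. Their differences from limbs were 3.66 ± 0.57 and 3.70 (limma, adjusted p = 0.0156 and 0.0126). Id2, a transcriptional regulator required for Langerhans cells, was already at 8.45 to 9.93 in limbs, stood at 7.12 and 8.74 in E14.5 skin and rose to 12.45 and 12.04 in E18.5 skin, by 3.19 against limbs (adjusted p = 0.042). Cd207, which encodes langerin, the defining lectin of mature Langerhans cells, was at the floor in all 4 skin libraries. Itgae was at the floor in 3 skin libraries and at 5.53 in the other. Axl and Mfge8 were not called between the skin ages, with differences of 4.04 and 4.56 (adjusted p = 0.0778 and 0.0977).

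**Figure D2:**
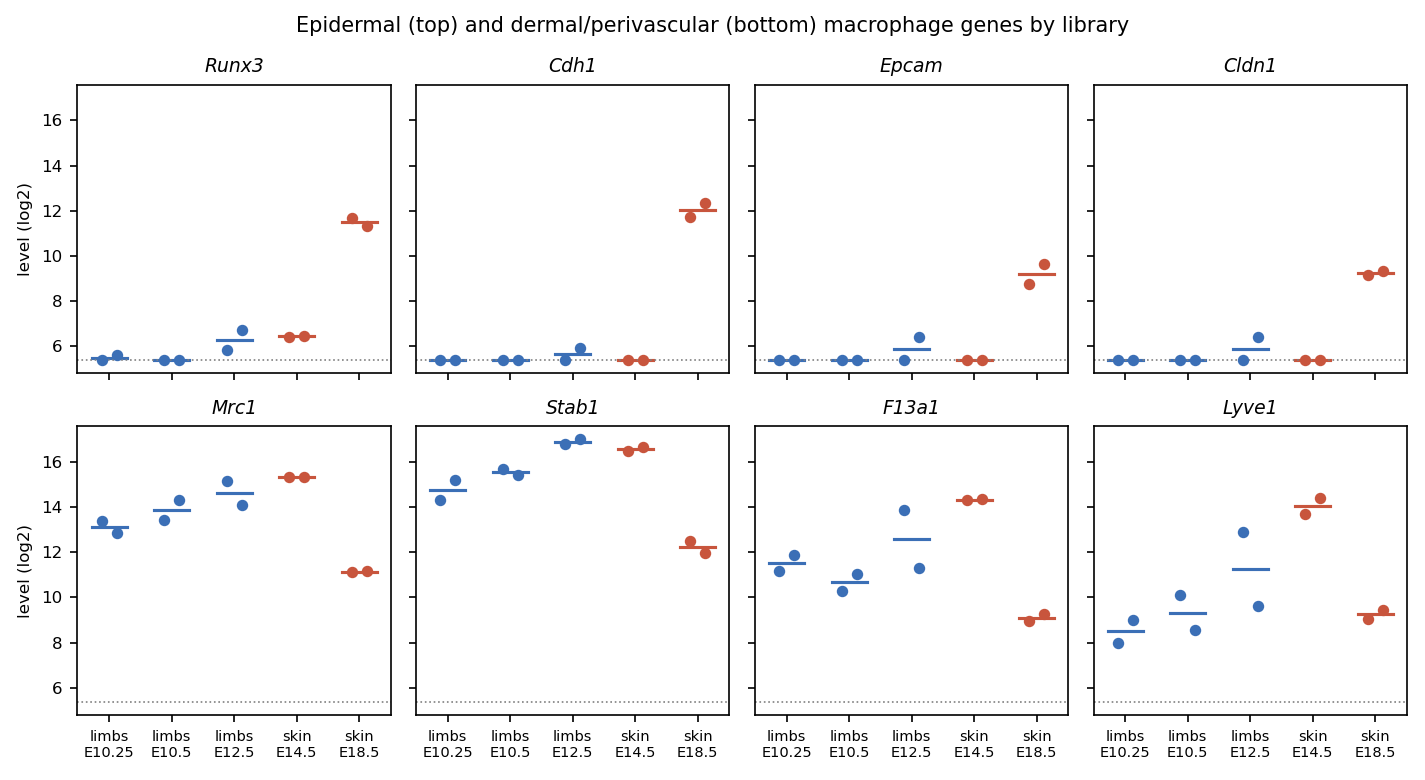
Log2 level in each of the 10 libraries of 4 genes of the epidermal list (Runx3, Cdh1, Epcam, Cldn1) and 4 of the dermal list (Mrc1, Stab1, F13a1, Lyve1). Dots are libraries, bars are group means and the dotted line is the floor of 5.38. The epidermal genes are high in the 2 E18.5 skin libraries, and the dermal genes are lower there than in E14.5 skin.

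Spint1, an inhibitor of epithelial surface proteases, had the largest difference of E18.5 skin from limbs among the genes that could be named. It was between 5.38 and 6.15 in limbs, at the floor in E14.5 skin and at 11.72 in E18.5 skin replicate 1 and higher still in replicate 2, a rise of 6.60 ± 0.68 against limbs (limma, adjusted p = 0.00283). St14, which encodes the membrane protease matriptase, a target of that inhibitor, and Tjp3, a tight junction scaffold, were picked after their values had been seen. St14 was at the floor in the other 8 libraries and at 7.82 and 8.03 in E18.5 skin, and Tjp3 at 7.78 and 8.32. Both rose against limbs, by 2.55 and 2.68 (adjusted p = 0.0246 and 0.0227). Spint1, St14 and Tjp3 passed the filter only through the E18.5 skin libraries. Since St14 and Tjp3 were picked by their values, their p-values are no separate support.

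Keratinocyte RNA was measured beside these genes, since keratinocytes also make E-cadherin, Epcam, claudin-1 and Spint1. Of 12 measured keratinocyte markers, 2 were detected in E18.5 skin replicate 1 and 11 in replicate 2. Their summed level was 7.46 in replicate 1, within the range of the limbs (5.38 to 9.05), and 12.12 in replicate 2. Krt5 and Krt15 were at the floor in replicate 1 and at 8.85 and 9.07 in replicate 2, and Krt1 was detected in replicate 2 alone (10.06). Cdh1, Epcam and Spint1 were higher in replicate 2 than in replicate 1, as was Cldn1 by a smaller margin, and Runx3 was lower there. Without replicate 2 the difference of Runx3 from limbs was 5.97, that of Epcam 3.21 and that of Cldn1 3.62, with adjusted p of 0.065, 0.353 and 0.258 and with 1 library left in that group. The part of keratinocyte RNA in these levels was not tested.

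**Figure D3:**
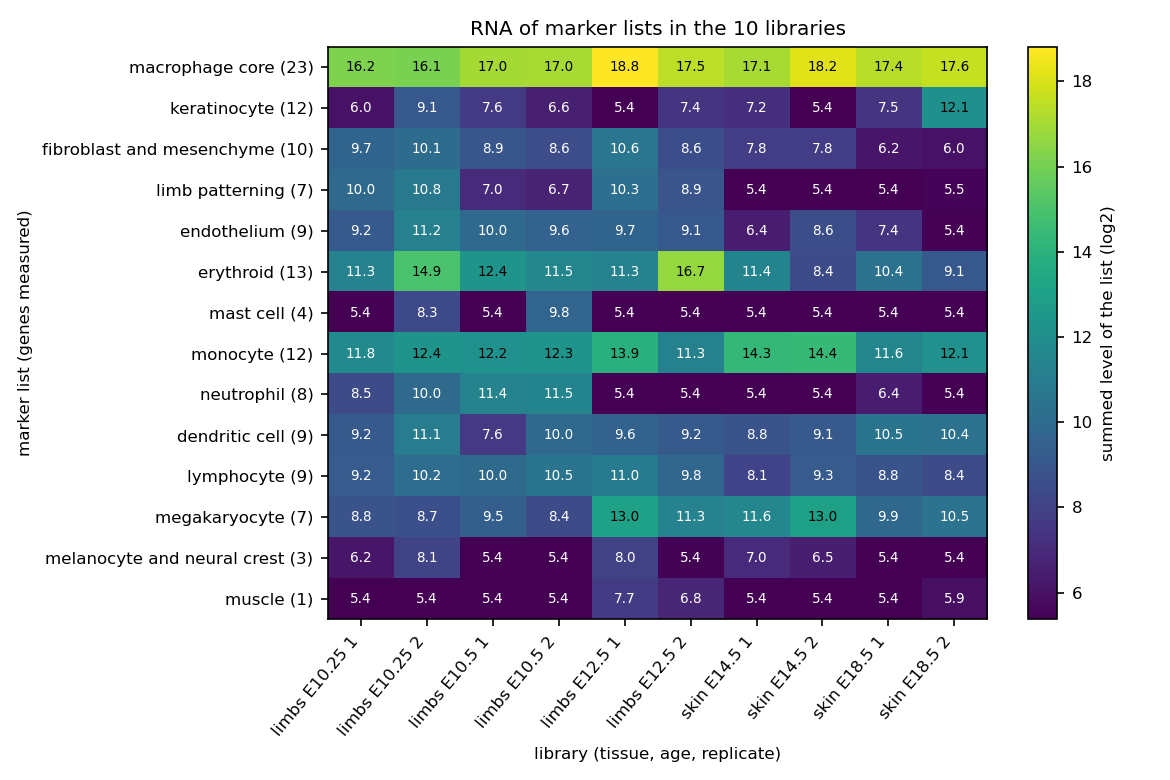
Summed log2 level of each marker list (rows) in each of the 10 libraries (columns). The macrophage core list is high everywhere, keratinocyte markers stand out in E18.5 skin replicate 2 (12.12), and limb patterning genes are seen in limbs and are at or near the floor in skin.

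Of 16 tested genes of the RUNX and TGF-beta list, Runx3 was the 1 that rose in E18.5 skin in either comparison, and 0 fell. The shares that rose over all genes tested were 0.542% against limbs and 0.439% against E14.5 skin. In each of the 2 comparisons 3 members had an unadjusted p under 0.05 on the higher side and 2 on the lower. The receptor gene Tgfbr1 was at 8.40 to 12.04 in limbs, 10.31 and 9.74 in E14.5 skin and 12.22 and 12.12 in E18.5 skin, a difference from limbs of 2.22 with an adjusted p of 0.0754. Runx1, the family member used by early blood cells, was at 10.56 to 11.83 in limbs, 11.21 and 10.95 in E14.5 skin and 9.36 and 8.87 in E18.5 skin, where it lay under all other libraries. Its difference from limbs, -1.86, had an adjusted p of 0.0986. Tgfbi, a TGF-beta-induced matrix protein, was higher in all 4 skin libraries (12.38 to 13.23) than in all 6 limb libraries (9.13 to 11.64), by 1.79 with an adjusted p of 0.204.

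Mrc1, the mannose receptor, ran the other way from Runx3 within skin. Its levels in limbs were 13.41 and 12.88 at E10.25, 13.45 and 14.34 at E10.5 and 15.17 and 14.08 at E12.5, and in skin they were 15.32 and 15.34 at E14.5 and 11.11 and 11.16 at E18.5. E14.5 skin lay above all limb libraries and E18.5 skin below all of them. Mrc1 fell by 4.20 ± 0.63 from E14.5 to E18.5 skin (limma, adjusted p = 0.0219) and was lower in E18.5 skin than in limbs by -2.75 ± 0.51 (adjusted p = 0.0336). Over both skin ages the difference from limbs was -0.65 ± 0.40 with an adjusted p of 0.743, and with E14.5 skin alone it was 1.44. Within the larger low-value set the difference of E18.5 skin from limbs was -2.42 with an adjusted p of 0.0796.

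Of the 20 genes of the dermal and perivascular list, 18 were measured and 16 tested. At E18.5, 6 fell against E14.5 skin (Igf1, F13a1, Gas6, Lyve1, Stab1 and Mrc1), where 0.404% of all genes did. Against limbs 4 fell, where 0.198% of all genes did, and 0 rose in either comparison. The list's median was -3.15 between the skin ages, where the median over all genes was -0.01. Stab1, a scavenger receptor, was at 14.33 to 17.01 in limbs and at 16.50 and 16.66 in E14.5 skin, and stood at 12.51 and 11.99 in E18.5 skin, below every other library. It fell by 4.33 between the skin ages (limma, adjusted p = 0.0268). F13a1, the coagulation factor XIII subunit made by macrophages, was at 14.31 and 14.36 in E14.5 skin and 8.94 and 9.25 in E18.5 skin, and fell by 5.24 ± 0.75 (adjusted p = 0.0219).

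Lyve1, a hyaluronan receptor, was at 13.69 and 14.41 in E14.5 skin and fell to 9.05 and 9.45 at E18.5, by 4.80 ± 0.95 (limma, adjusted p = 0.0441), which is within the limb range of 7.99 to 12.89. Gas6, a bridge between dying cells and phagocyte receptors, was at 11.03 to 11.42 in the earlier limbs, 14.31 and 13.71 in E12.5 limbs, 13.70 and 13.96 in E14.5 skin and 7.90 and 9.32 in E18.5 skin. Its E12.5 limb and E14.5 skin levels were alike and its E18.5 levels the lowest of all. It fell by 5.22 between the skin ages (adjusted p = 0.0109). Igf1, a growth factor made by tissue macrophages, was at 11.16 and 11.83 in E14.5 skin and at 5.38 and 5.65 in E18.5 skin, a fall of 5.99 (adjusted p = 0.0219).

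Single members of other lists also fell from E14.5 to E18.5 skin: 1 of 13 tested iron and heme genes, 1 of 23 macrophage core genes and 1 of 21 lipid and cholesterol genes. Over all genes tested, 0.404% fell. Slc40a1, the iron exporter ferroportin, went from 12.03 and 11.84 to 6.79 and 7.22, by -4.93 (limma, adjusted p = 0.0328). Dab2, an endocytic adaptor of the macrophage core list, went from 15.66 and 15.85 to 11.94 and 12.11, and the cholesterol exporter gene Abca1 from 11.95 and 12.42 to 8.53 and 8.44. Both fell (adjusted p = 0.0328 and 0.0494). Cbr2, a carbonyl reductase gene used as a marker of dermal macrophages, was at the floor in all 6 limb libraries and at 9.29, 8.14, 7.60 and 8.83 in the 4 skin libraries. Its difference over both skin ages, 3.09 ± 0.53, had an adjusted p of 0.115.

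Of 12 tested genes of the MHC class II list, 3 rose at E18.5 in both comparisons (H2-Ab1, Cd74 and H2-DMb1) and 0 fell. Of all genes tested, 0.542% rose against limbs and 0.439% against E14.5 skin. The list's median was 3.89 against limbs and 5.02 against E14.5 skin, where the medians over all genes tested were 0.02 and -0.01. H2-Ab1, the class II beta chain, was at 6.74 and 7.79, then 5.38 and 7.54, then 7.24 and 9.63 in limbs of rising age. It was at the floor in both E14.5 skin libraries and at 12.03 and 13.52 in E18.5 skin. It rose by 5.39 ± 0.96 against limbs (limma, adjusted p = 0.0253) and by 7.40 ± 1.17 against E14.5 skin (adjusted p = 0.022). Cd74, the invariant chain, lay between 7.96 and 10.10 in limbs, at 5.38 and 8.14 in E14.5 skin and at 13.22 and 14.72 in E18.5 skin. Its rise was 5.16 ± 0.83 against limbs (adjusted p = 0.0172). The list also holds the co-stimulatory gene Cd86, which went the other way, at 12.28 and 12.07 in E14.5 skin and 10.21 and 11.13 in E18.5 skin (difference -1.51, adjusted p = 0.333). The list's summed level in E14.5 skin, 12.35 and 12.47, was mostly Cd86.

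H2-DMb1, a chain of the peptide-loading chaperone, was at 5.38 to 6.82 in limbs, at the floor in E14.5 skin and at 10.34 and 10.89 in E18.5 skin, a rise of 4.94 against limbs (limma, adjusted p = 0.00792). H2-Aa and H2-Eb1, whose promoters are shown above, had E18.5 skin levels of 10.55 and 12.65 and of 10.27 and 12.22. They were not called against limbs, where limbs E12.5 replicate 2 reached 8.84 and 8.43 (differences of 5.16 and 4.83, adjusted p = 0.0542 and 0.0592). Ciita, the class II transactivator, was at 8.24 and 7.31 in E18.5 skin and at or near the floor elsewhere (highest value 5.89), with an adjusted p of 0.0571 against limbs. Dendritic cells also make class II, and of 9 measured markers of that list between 1 and 4 were detected per library, with a summed level of 7.62 to 11.08 in limbs, 8.82 and 9.10 in E14.5 skin and 10.53 and 10.40 in E18.5 skin. Its part in the class II levels was not tested.

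**Figure D4:**
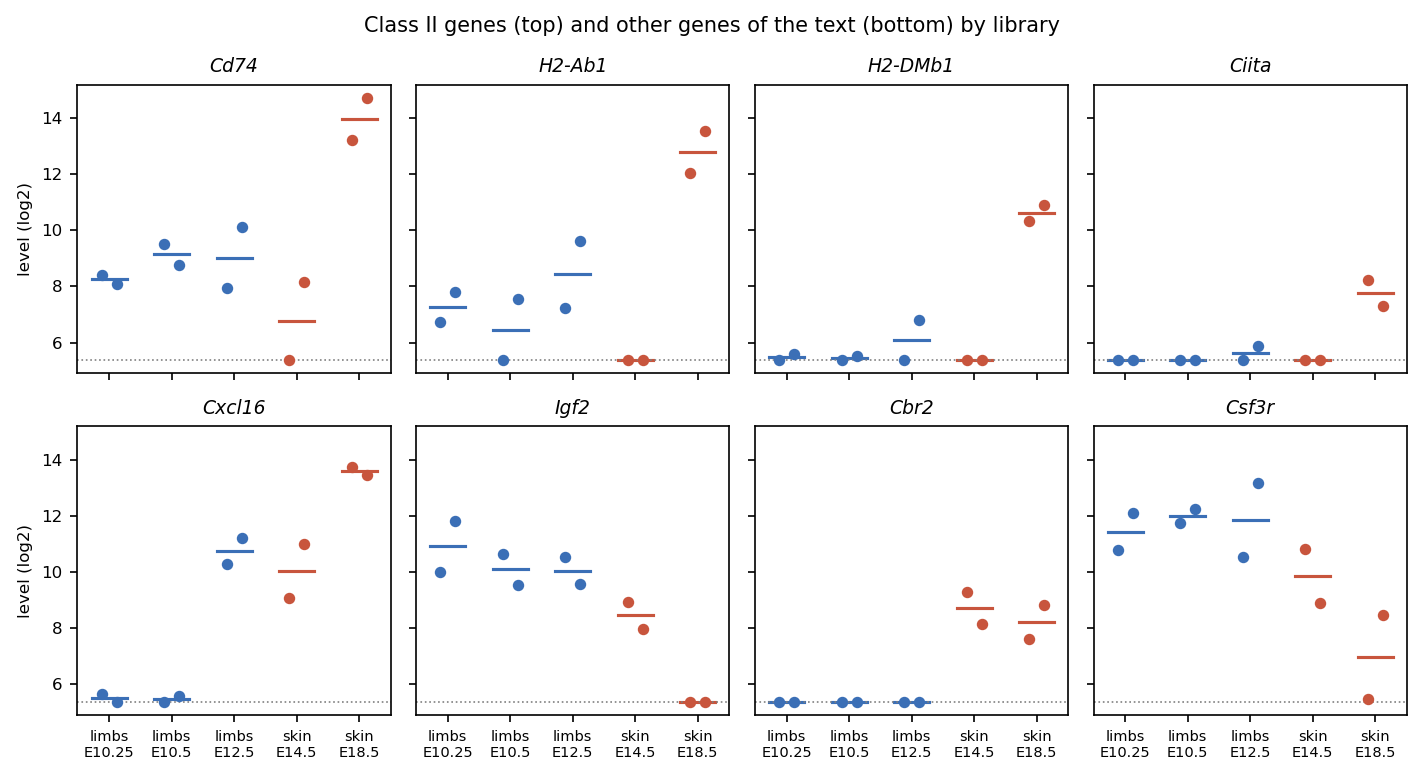
Log2 level in each library of the class II genes Cd74, H2-Ab1, H2-DMb1 and Ciita, and of Cxcl16, Igf2, Cbr2 and Csf3r. Dots are libraries, bars are group means and the dotted line is the floor. The 4 class II genes and Cxcl16 are highest in the 2 E18.5 skin libraries, and Cbr2 is at the floor in every limb library.

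None of the 14 tested MHC class I genes was called in either comparison of E18.5 skin, although all 14 were above 0 against limbs (7 with an unadjusted p under 0.05) with a median of 1.77. H2-K1, a classical class I chain, was at 9.40 to 11.74 in limbs and at 11.06, 12.42, 12.13 and 12.17 in skin, so the tissues overlapped. No interferon response gene was called among 21 tested, with 3 at an unadjusted p under 0.05 against limbs and a median of 0.94. Over all genes tested against limbs, 8.91% had an unadjusted p under 0.05 in either direction, and the median was 0.02.

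Among chemokines, cytokines and their receptors, Cxcl16, Il1a and Il1b rose in E18.5 skin against limbs, out of 16 tested members of the inflammatory list. Over all genes tested, 0.542% rose in that comparison. Il1a was at 10.57 and 8.91 and Il1b at 9.13 and 7.86 in E18.5 skin, and their rises were 4.29 and 2.86 (limma, adjusted p = 0.0412 and 0.0478). In E14.5 skin Il1b was at the floor and Il1a at 8.26 and 5.38. The Il1a call was kept under 11 alternatives and lost under 11, among them without either E18.5 skin library, any E10.25 or E10.5 limb library or limbs E12.5 replicate 2. The Il1b call was kept under 4 and lost under 16, among them without any 1 limb or E14.5 skin library other than limbs E12.5 replicate 2, and Il1b fell under the filter without either E18.5 skin library. Ccr2, the receptor of monocyte chemokines, was at 6.29 and 6.07 in E10.25 limbs, 7.26 and 9.02 in E10.5 limbs, 5.38 in E12.5 limbs and E14.5 skin and at 10.85 and 10.63 in E18.5 skin, a rise of 4.18 against limbs (adjusted p = 0.0336). Ccr2 is also a monocyte marker. Of 12 measured markers of that list, 3 and 3 were detected in E14.5 skin and 5 and 9 in E18.5 skin. Between the skin ages Ccr2 rose and F13a1 fell among 8 tested members, with a median of 1.78. The list's summed level, 14.34 and 14.37 in E14.5 skin and 11.57 and 12.15 in E18.5 skin, was mostly F13a1 at E14.5. The part of monocytes in the Ccr2 level was not tested. Csf3r, the receptor of granulocyte colony-stimulating factor, was between 10.54 and 13.15 in limbs, 10.83 and 8.89 in E14.5 skin and 5.49 and 8.48 in E18.5 skin, and fell by 4.77 against limbs (adjusted p = 0.0336).

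The next 5 called genes encode surface receptors and come from no single list. Itgax, which encodes CD11c, was at the floor in all limbs, at 5.38 and 8.48 in E14.5 skin and at 10.34 and 10.12 in E18.5 skin, a rise of 4.86 against limbs (limma, adjusted p = 0.0203). Cd72, an inhibitory lectin of B cells and myeloid cells, was at 6.40 and 5.38 in E14.5 skin and 12.83 and 12.63 in E18.5 skin, a rise of 6.85 between the ages (adjusted p = 0.022). Trem1, an activating receptor picked after its values had been seen, was at the floor in all libraries but the E18.5 skin pair, at 9.11 and 8.81, and rose by 3.58 against limbs (adjusted p = 0.00906). It passed the filter only through that pair, so its p-value is no separate support either. Tlr1, a receptor for bacterial lipopeptides, was at 9.54 to 12.86 in limbs, 11.74 and 11.63 in E14.5 skin and 7.35 and 6.71 in E18.5 skin, and fell by 3.93 against limbs (adjusted p = 0.0253). Adgre5, the adhesion receptor CD97, was at 9.71 to 10.70 in limbs, 10.45 and 9.96 in E14.5 skin and at the floor in both E18.5 skin libraries, and fell by 4.89 (adjusted p = 0.00347).

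Some genes separated all 4 skin libraries from all 6 limb libraries. This held for 71 of the 11624 genes on the higher side (0.611%) and 49 on the lower side (0.422%). None of these was called over both skin ages, and those given here are the ones with the smallest unadjusted p. Rgs11, a regulator of G protein signalling, was at the floor in limbs and at 9.01, 7.82, 9.65 and 8.45 in skin (difference 3.36, adjusted p = 0.115). Gch1, the first enzyme of tetrahydrobiopterin synthesis, was at 5.38 in 5 limb libraries and 6.53 in the other, and at 9.19, 9.80, 8.51 and 7.89 in skin (3.28, adjusted p = 0.115). Fcgr2b, the inhibitory Fc receptor, was at 5.38 to 8.86 in limbs and 10.15 to 11.19 in skin (3.66, adjusted p = 0.205). Nlrc5, a transactivator of class I genes, was at 5.38 to 6.25 in limbs and 7.14 to 8.60 in skin.

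Of 15 tested members of the fetal growth and imprinted list, 0 were called over both skin ages and 1, Igf2, fell in E18.5 skin. Over both ages 14 had a difference below 0 and 9 of them an unadjusted p under 0.05, with a median of -1.89. Over all genes tested, 8.25% had an unadjusted p under 0.05 in either direction, and the median was 0.03. In 4 members of the list all skin libraries lay below all limb libraries, as in 0.422% of all genes tested. Igf2, the fetal insulin-like growth factor, was at 9.53 to 11.82 in limbs, 8.95 and 7.98 in E14.5 skin and at the floor in both E18.5 skin libraries. It fell by 4.97 ± 0.72 in E18.5 skin against limbs (limma, adjusted p = 0.0102). Mest, an imprinted gene of the embryonic mesoderm, was at 6.53 to 12.84 in limbs and at the floor in all skin libraries, and so was Mdk, the growth factor midkine, at 8.04 to 10.86 in limbs. Their differences, -3.14 and -3.63, had adjusted p of 0.234 and 0.204.

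Several marker lists of other cells had more RNA in limb libraries than in skin libraries, with overlap in the erythroid and neutrophil lists. The summed level of 7 measured limb patterning genes was 6.73 to 10.81 in limbs and 5.38, 5.38, 5.38 and 5.51 in skin. Prrx1, a limb mesenchyme factor, was at 8.52 and 9.41 at E10.25, 5.38 and 6.29 at E10.5 and 7.97 and 7.87 at E12.5. Fibroblast markers summed to 8.56 to 10.64 in limbs against 6.01 to 7.84 in skin, and endothelial markers to 9.09 to 11.20 against 5.38 to 8.60. Erythroid genes, mostly globins, summed to 11.30 to 16.70 in limbs, highest in limbs E12.5 replicate 2, and to 8.43 to 11.43 in skin. The neutrophil list, through Mpo and Prtn3, granule enzymes of early myeloid cells, was at 8.46 to 11.45 at E10.25 and E10.5, and at the floor at E12.5 and in 3 skin libraries. The part of these cells in the lower fetal growth genes was not tested.

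The remaining lists showed few or no called genes. Over all genes tested in E18.5 skin against limbs, 0.542% rose, 0.198% fell and 8.91% had an unadjusted p under 0.05. In E18.5 skin against limbs, 0 of 29 cell cycle genes were called by limma (0 with an unadjusted p under 0.05), with a median of 0.08, and the proliferation gene Mki67 was at 13.37 to 14.97 in limbs and 12.87 to 14.01 in skin. Of 20 lysosome, 18 glycolysis and 13 immediate early genes 0 were called (5, 4 and 2 with an unadjusted p under 0.05). Of 23 cytokine and chemokine receptors 1 rose and 1 fell, and of 21 phagocytic receptors 1 rose and 1 fell (Ccr2, Csf3r, Itgax and Tlr1, given above). Of 24 transcription factors, Bhlhe40, a regulator of macrophage identity and proliferation, rose by 2.33 against limbs (adjusted p = 0.0336), from the floor to 7.65 and 7.76. Of 18 growth factor and matrix genes 1 rose and 1 fell. Mmp14, a membrane-bound matrix protease, rose by 4.31 (adjusted p = 0.00744), from at most 5.80 to 9.49 and 10.01, and Igf1 fell.

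At the closest ages, 2 days apart, skin E14.5 was compared with limbs E12.5. Limma called 0 of 11624 genes (0%), and 1099 (9.45%) had an unadjusted p under 0.05. The lists leaned differently than at E18.5. The median was -0.88 for the Langerhans list, -1.63 for the class II list and 0.89 for the dermal list, with -0.01 over all genes. The 2 E12.5 limb libraries were the least alike of any replicate pair (r = 0.628), and without replicate 1 of them the count became 156, with 104 higher and 52 lower.

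Brain and liver were sampled over the same span of ages, so the skin to limb difference was set against the mean change with age in those tissues, in a fit of 30 libraries. Of 13556 genes, 26 were called (0.192%), 14 higher (0.103%) and 12 lower (0.0885%) in the caudal change, and 1249 (9.21%) had an unadjusted p under 0.05. The 5 largest on the higher side were Serpinb8, Mettl3, Lyve1, F13a1 and Cdh1. Serpinb8, a protease inhibitor, was at 9.81 to 10.23 in all 4 skin libraries and at 5.38 to 8.90 in limbs, and at the floor in brain and liver at E14.5 and E18.5 (difference 5.06 ± 0.94, adjusted p = 0.0247 from limma). For Lyve1 and F13a1 the differences were 4.35 ± 0.82 and 3.70 ± 0.68 (adjusted p = 0.0247 for both), and for Cdh1 3.63 ± 0.71 (adjusted p = 0.0297). Cd207 was called on the lower side, with a difference of -1.98 ± 0.39 (adjusted p = 0.0297). It was at the floor in skin and brain at E14.5 and E18.5 and at 9.05 and 9.38 in liver, and against brain alone its difference was -0.11 with an adjusted p of 0.971. The Langerhans list thus had 1 gene called higher and 1 lower in the caudal change. Also lower, Clec4f and C6 were at the floor in skin, while in liver at E18.5 their means were 15.25 and 11.40. Against brain alone the difference of Clec4f, a Kupffer cell lectin, turned to 0.04. Without skin E18.5 replicate 1 or 2, the count of called genes was 1 or 4. It was 10, 12, 13 and 52 without limbs E10.25 replicate 1, limbs E10.25 replicate 2, limbs E10.5 replicate 2 and limbs E12.5 replicate 1. It was 12, 60 and 12 without brain E12.5 replicate 1, brain E14.5 replicate 1 and brain E14.5 replicate 2, and 61, 43 and 45 without the liver E14.5 library, liver E18.5 replicate 1 and liver E18.5 replicate 2.

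Among macrophages of the same ages, high Runx3 and Cdh1 were seen in E18.5 skin. The mean of Runx3 at E18.5 was 11.50 in skin, 7.72 in kidney, 7.70 in liver, 6.74 in lung and 5.38 in brain, and that of Cdh1 was 12.03 in skin and at most 7.50 elsewhere. In skin after birth, Runx3 stood at 12.18 at P2 (3 libraries), 12.46 at P8 and 12.47 at P21, and Mrc1 at 12.31, 7.29 and 7.63. Mrc1 in E14.5 skin (15.33) was near that in kidney and lung (14.81 and 14.79), which kept 14.76 and 14.70 at E18.5, whereas skin fell to 11.14. The additive fit of skin against brain, kidney, liver and lung over both ages called 1 of 12650 genes (0.00791%), with 784 (6.20%) at an unadjusted p under 0.05. That gene was Ptgs1, cyclooxygenase 1, which was lower in skin (11.45 and 9.89 at E14.5 and E18.5) than in the other tissues (11.93 to 13.81), by -2.19 ± 0.36 (limma, adjusted p = 0.0413). Ptgs1 kept its call without brain E14.5 replicate 1, kidney E14.5 replicate 1, lung E14.5 replicate 2 or skin E14.5 replicate 2, and lost it without any other single library and against kidney and lung alone.

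**Figure D5:**
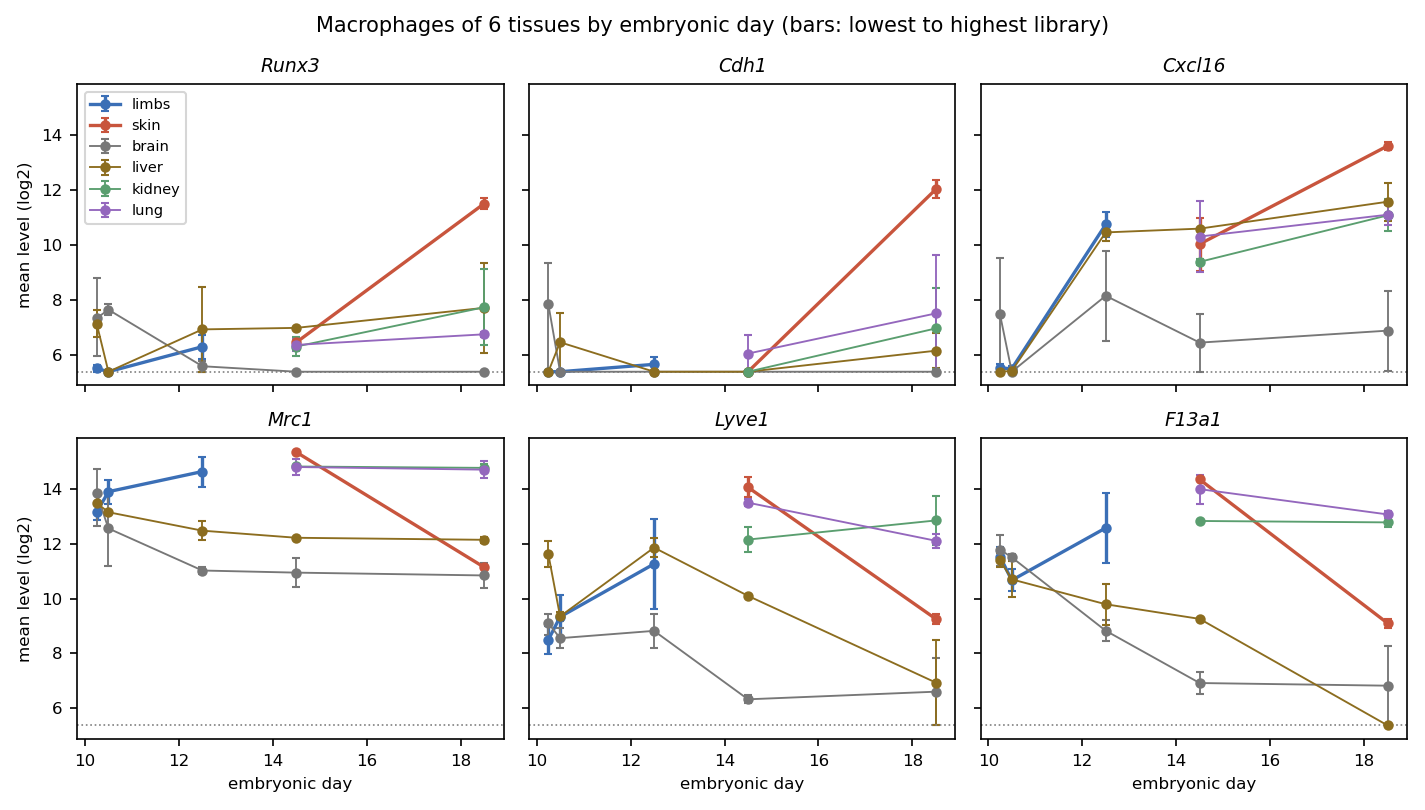
Mean log2 level of Runx3, Cdh1, Cxcl16, Mrc1, Lyve1 and F13a1 by embryonic day in macrophages of limbs, skin, brain, liver, kidney and lung. Bars run from the lowest to the highest library. Runx3 and Cdh1 are high in skin at E18.5, and Mrc1, Lyve1 and F13a1 drop in skin from E14.5 to E18.5.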

How the data were processed

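The table holds log2 values for 37521 transcripts in 93 libraries, as deposited by the authors. Their range (0.836 to 19.0) gave the base of 2, and no source used here states the normalization. The submitters' processing notes name Bowtie 1.1.1, DESeq2 and the mm10 build without roles. Without counts, neither depth nor counting error can be given.

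The lowest values of a library cluster in a band (2.33 to 4.88). A floor of 5.38, 0.5 above the highest band, was set, and the parts of 36714 matched transcripts above it were summed per gene (14189 genes). A gene was tested where at least 2 libraries reached 6.38. The test was limma (version 3.58.1, R 4.3.3) with 1 mean per tissue and age (2 libraries per group, except 3 for brain E10.25 and 1 for liver E14.5) and empirical Bayes moderation along an intensity trend. Skin against other tissues was instead fitted with 1 mean per tissue and an additive term for age. This script was tested on simulated data.

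The libraries, gene lists and rules were chosen with earlier results of these data known. The genes named were Runx3, Mrc1, the called genes with the largest differences (group mean of at least 7.38 in the higher group), and up to 4 called and 2 uncalled members per list. Since only 1 gene was called for skin against limbs, genes without overlap were ranked there by unadjusted p. Any other named gene is said to have been picked after its values were seen, or stands for a list, a marker or another tissue. Same-numbered libraries of different groups did not deviate together (correlations of -0.11 to 0.10), so numbers were not treated as pairs.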

Additional observations from a re-analysis of the deposited data

Results flagged for a closer look

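Of 74 groups of 4 or 6 libraries checked for a value far from the others (summed marker lists, Runx3, Mrc1 and Cxcl16), 9 had one. Chance alone gives about 1 in 20 where the libraries of a group are alike. Each group here pooled several ages of a tissue, so that rate does not strictly apply. In limbs E12.5 replicate 1 the summed lipid and cholesterol genes stood at 17.98 and the Kupffer cell list at 13.31, both above the other limb libraries. In limbs E10.25 the cell cycle list was low in replicate 1 (15.72) and the fetal growth list high in replicate 2 (14.52). Runx3 was highest in limbs E12.5 replicate 2 (6.73). In skin, the growth factor and matrix list was highest in E14.5 replicate 2 (13.14), and the limb patterning list (5.51), the neutrophil list (6.39, replicate 1) and the single muscle gene measured (5.93) were above the floor in 1 E18.5 library each, near their limit of detection. In these last 3 the other skin libraries were tied at the floor, so any value above it stands apart.

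The 2 skin ages differed in 98 called genes, and the caudal change departed from that of brain and liver in 26, both by tests of the difference itself.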

How the results depend on the processing

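Of the gene results recomputed under each alternative, 2 turned direction: the difference of Mrc1 between skin and limbs (1.44 with E14.5 skin alone) and that of Clec4f in the caudal change (0.037 against brain alone). For skin against limbs (1 gene), 0 were called without the filter, with the highest transcript per gene, without the intensity trend, in a fit of 2 groups, with E14.5 skin alone, with the low-value set as a covariate and within the larger set. The count was 86 with E18.5 skin alone, 51 in the fit of 30 libraries and 36 there with the set as a covariate. Leaving out 1 library gave 0 to 1. For skin E14.5 against limbs E12.5 (0 genes), leaving out 1 library gave 0 to 156. The caudal change (26 genes) had 47 without the filter, 3 with a stricter filter, 41 against brain alone and 127 against liver alone, and 1 to 61 with 1 library left out. Skin against other tissues (1 gene) had 2 with a lower floor or without the filter, 573 with sample weights, and 0 with the highest transcript, quantile normalization, no intensity trend or kidney and lung alone, and 0 to 5 with 1 library left out. E18.5 against E14.5 skin (98 genes) had 64 with the stricter filter, 61 with the highest transcript, 226 with sample weights, 171 in the fit of 30 libraries and 0 to 218 with 1 library left out. E18.5 skin against limbs (86 genes) had 23 with the stricter filter, 56 without the trend, 499 with sample weights, 35 with the set as a covariate, 7 within the larger set, 133 in the fit of 30 libraries and 0 to 166 with 1 library left out. The cause of these changes was not tested.

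With the replicate number as a block, which does not pair the libraries here, 45 genes were called between the skin ages (42 of the 98), 60 for E18.5 skin against limbs (58 of the 86), 15 for the caudal change, 1 for skin against limbs and 0 for skin E14.5 against limbs E12.5 and for skin against other tissues. Runx3 was not called between the skin ages with the block (adjusted p = 0.0502), nor was Mrc1 for E18.5 skin against limbs (0.0648) or Cd207 for the caudal change (0.0505). Median scaling moved the median difference of all genes from -0.01 to 0.17 between the skin ages and from 0.02 to 0.13 for E18.5 skin against limbs. It changed the split of higher and lower calls from 51 and 47 to 64 and 30 between the skin ages and from 14 and 12 to 22 and 9 for the caudal change. Quantile normalization changed it from 63 and 23 to 76 and 45 for E18.5 skin against limbs. The stricter filter changed it to 4 and 19 for E18.5 skin against limbs and to 18 and 46 between the skin ages. With 2 libraries per group and no counts, differences not called may still exist.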
